A study of Rattus norvegicus with 9 samples.

Results

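Of the 87 rows of a rat heart array, 8 were picked for high values after deacclimation and reacclimation but not in unstressed acclimated hearts. These rows, A022, R570, R516, R208, R249, R158, R050 and A024, were chosen by their deposited log2 ratios to the untreated control. A row was taken if its log2 ratio was 1 or more (at least 2-fold above the control) in deacclimated, reacclimated and reacclimated heat-stressed rats and below 1 in both unstressed acclimated groups. The values of these 5 groups therefore describe the choice and support nothing else. The row names are array positions, and neither the files nor the reference table (0 of 87 names matched) tie them to a gene, so no gene function is given.

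Heat acclimation is the gradual adaptation of the body to lasting moderate heat, and in the heart it is known for changes in contraction, metabolism and stress protection. The acclimated state fades when the animal returns to a mild temperature. Animals that have lost it are known to regain it faster on a new exposure than at the first one, which is called acclimation memory. The study's design follows that course from the first exposure through loss to re-induction.

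Total RNA came from the left ventricle of rats, and the labels give no strain, sex or age. Control rats were untreated. Heat-stressed rats without acclimation were exposed to 41 °C for 2 h and recovered at 24 °C for 1 h. Acclimated rats were kept at 34 °C for 2 d or 1 mo, and each of these states was also studied after the same heat stress. Deacclimated rats had 1 mo at 34 °C and then 1 mo at 24 °C. Reacclimated rats had the same history and then 2 d at 34 °C, and one more group was heat-stressed after that. The deacclimated, reacclimated and reacclimated heat-stressed rats are called the later groups below, and all 3 share the earlier month at 34 °C and the month at 24 °C. The protocols differ in length and the labels give no age, so age and heat history cannot be told apart.

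Each of the 9 groups had 1 deposited value per row, which the labels describe as a summary of 3 RNA pools with 6 animals stated. No group had replicates, so differences are sizes with no p-value and no error, and none can be set against a spread between animals. The number of arrays limits the precision. A second deposited table gives intensities, the brightness of a row on a linear scale. Their medians over all rows lay between 1064 and 4962 by group, so intensities were scaled to each sample's median before comparison. In RNA from whole tissue, a change in the number of cells of a type and a change in RNA per cell cannot be told apart. The array position names also left no marker with which to check the tissue.

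In the later groups, where the choice itself fixed the count, all 8 rows stood at 1 or more. Among all rows, 20.7% did so after deacclimation, 27.6% after reacclimation and 29.9% after reacclimation with heat stress, and nothing is read from that contrast. Over the 8 rows the median log2 ratio was 1.50, 1.69 and 1.53 in these groups, against 0.19, 0.41 and 0.30 over all rows. In the acclimated groups, where 12.6% (2 d) and 11.5% (1 mo) of all rows reached 1, the choice fixed the members' count at 0. Their medians there were 0.30 and 0.20, against 0.23 and 0.13 over all rows, with ranges of -0.55 to 0.62 after 2 d and -0.50 to 0.63 after 1 mo.

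Near the limits, the rows just inside were A024, whose lowest later value was 1.06, R158 (1.08) and R050 (1.08). Just outside lay A073, at 1.84, 1.78 and 1.03 in the later groups but at 1.04 and 1.09 in the acclimated groups. Row R105 missed through a reacclimated value of 0.90, and its control value was listed at -6.64. Row A062 had 0.98, 0.97 and 0.89 in the later groups. All 6 rows lay within 0.11 of a limit, and no error is known for any of these values.

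**Figure D1:**
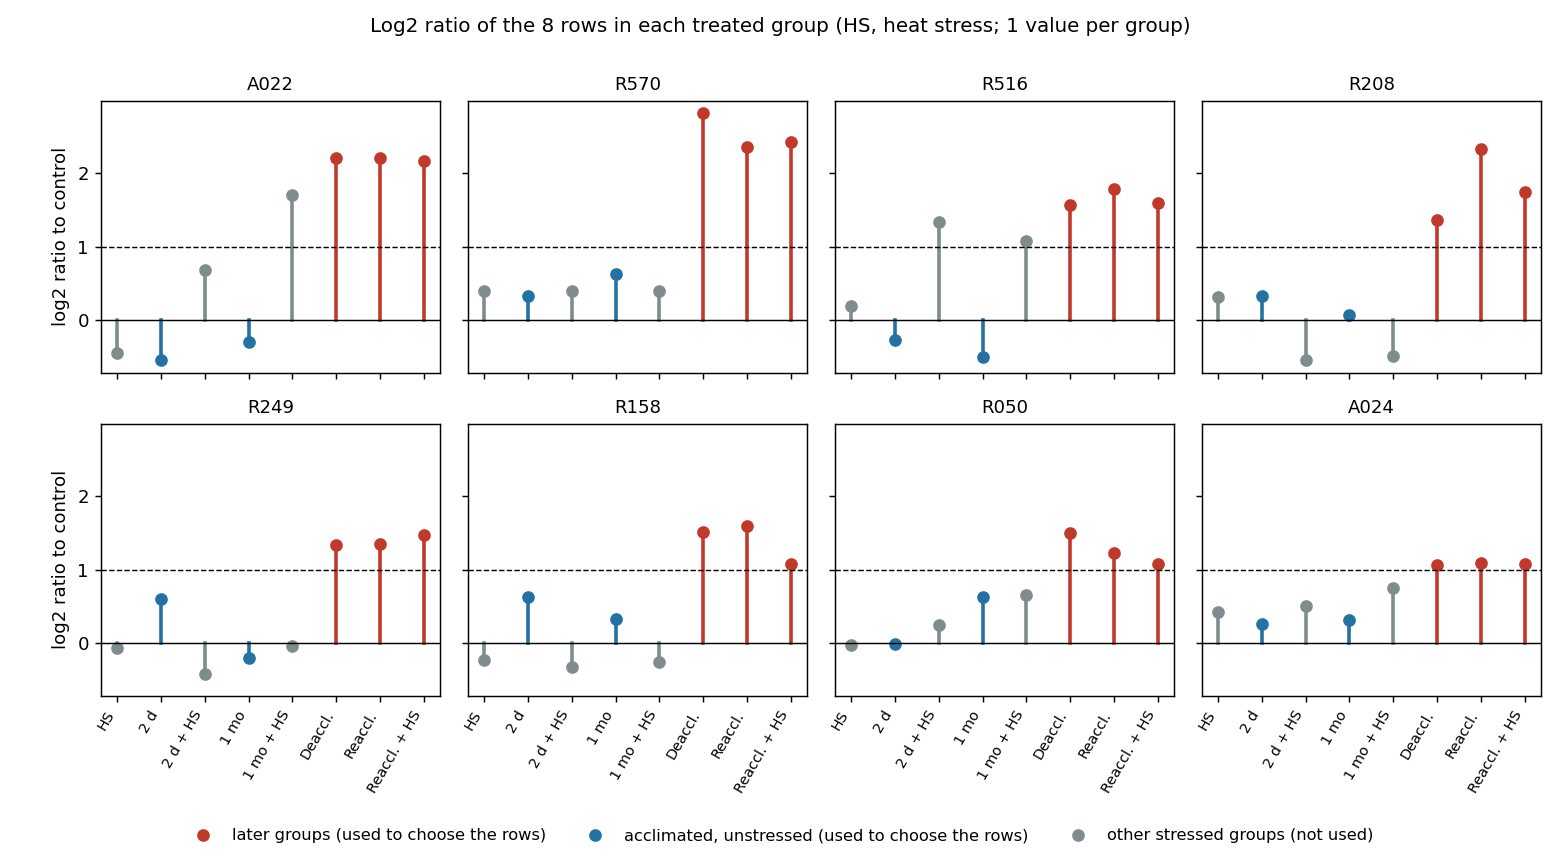
Deposited log2 ratio to the control (vertical axis) of each of the 8 rows in the 8 treated groups (horizontal axis), 1 point per group, with a line from 0 to each point and the limit of 1 dashed. The later groups (red) lie at 1.06 or above in every panel, and among the stressed groups that played no part in the choice (grey) only R516 (1.33 and 1.07) and A022 (1.71) pass 1.

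The stressed groups without a later history were not used to choose the rows. In heat-stressed rats without acclimation 0 of 8 rows reached 1, beside 5.75% of all rows. After 2 d acclimation with heat stress 1 of 8 did, beside 6.9%, and after 1 mo acclimation with heat stress 2 of 8 did, beside 8.05%. The median of the 8 rows was 0.09, 0.32 and 0.52 in these groups, against -0.06, -0.26 and 0.01 over all rows. In each of these groups 5 of the 8 rows lay above the median of all rows. These ratios use the same control as the ratios that chose the rows.

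For every one of the 8 rows, the lowest of the later values lay above the highest value in the 3 other stressed groups, although the rule did not ask for it. Over all rows this order was found in 33.3%. It was also found in 4 of the 5 other rows that stood at 1 or more in all later groups but were left out for a high acclimated value, so it goes with high later values in general. By scaled intensity the order held in 3 of the 7 rows with an intensity above 0 in all 6 groups (R208, R249 and R158), against 12.9% of 62 rows. The gap in log2 ratio was 1.96 for R570, 1.38 for R249, 1.31 for R158 and 1.06 for R208. It was 0.45 for A022, 0.43 for R050, 0.30 for A024 and 0.23 for R516.

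Rows A022 and R516 shared a profile in which heat stress after acclimation was also high. A022 was listed at -0.45 in heat-stressed rats, -0.55 after 2 d acclimation and -0.30 after 1 mo acclimation. With heat stress it was 0.69 after 2 d and 1.71 after 1 mo acclimation, and the later groups gave 2.20, 2.20 and 2.16. Only the 1 mo acclimated, stressed hearts came near the later groups, at 3.27-fold the control against 4.47-fold to 4.61-fold. A022 ranked 4 of 87 in that group, after ranks of 72 and 66 in the unstressed 2 d and 1 mo acclimated groups.

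The listed intensities of A022 fell into a lower and a higher set of groups. They were 1458 in the control, 2442 in heat-stressed, 1606 in 2 d acclimated and 2492 in 1 mo acclimated rats. With heat stress they were 1618 after 2 d and 11123 after 1 mo acclimation, against 11763, 13606 and 14402 in the deacclimated, reacclimated and reacclimated stressed groups. The 5 lower intensities lay far from the 4 higher ones. After scaling, the 1 mo acclimated, stressed group was 2.68 above the control, within the range of the later groups (2.34, 2.80 and 2.52). The control value of A022 is, however, listed at -3.32, although the control set against itself would give 0. With it subtracted all treated ratios of A022 move up by that amount, the acclimated groups pass 1, and the row no longer meets the rule.

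R516 was listed at 0.19 in heat-stressed rats, -0.27 after 2 d and -0.50 after 1 mo acclimation. It stood at 1.33 and 1.07 in the same acclimated states with heat stress, and at 1.56, 1.78 and 1.59 in the later groups. Stressed acclimated hearts thus lay between the unstressed acclimated and the later hearts, and 0.23 separated the highest of them from the lowest later value. Its intensity was 1785 in the control, 2933 with heat stress, 3648 after 2 d and 1931 after 1 mo acclimation. It was 4863 and 5083 in the stressed acclimated groups, and 11298, 9507 and 11650 in the later groups. By listed intensity the later hearts lay clear of all others, but after scaling the 2 d acclimated stressed group came out highest, 0.23 above the lowest later group.

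R570 had the highest later values and the flattest course before them. Its log2 ratios were 0.39 in heat-stressed rats, 0.32 and 0.40 after 2 d acclimation without and with heat stress, and 0.63 and 0.39 after 1 mo. In the later groups it was 2.82, 2.36 and 2.42, or 7.04-fold, 5.12-fold and 5.36-fold the control, which placed it first, first and second of all rows. The 5 earlier groups covered only 0.31 log2 units from lowest to highest.

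Intensities of R570 were 2632 in the control, 1511 with heat stress, 3137 after 2 d and 3665 after 1 mo acclimation, and 7863, 5812 and 7594 in the later groups. With heat stress after acclimation they were -371.5 (2 d) and 1157 (1 mo). An intensity below 0 was taken to be at background level, a reading that no label states. The later groups were again highest, but by smaller differences from the control, at 0.91, 0.72 and 0.74 in scaled log2 intensity.

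R208, R249 and R158 were listed below the control when heat stress followed acclimation, although R249 by only -0.04 after 1 mo. By scaled intensity this held for all 3 after 2 d acclimation, but after 1 mo R158 was 1.59 and R249 0.87 above the control. R208 was listed at 0.31 with heat stress alone, 0.33 and 0.07 after 2 d and 1 mo acclimation, and -0.55 and -0.49 in the same states with heat stress. Its later values were 1.37, 2.33 and 1.75, and the range of 0.97 among them was the widest of the 8 rows. R208 was thus listed at 2.58-fold the control in deacclimated and 5.04-fold in reacclimated hearts.

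The second table did not place R208 above the control. Its intensity was 10092 in the control, 2885 with heat stress, 5066 after 2 d and 2115 after 1 mo acclimation, 329.2 and 3825 in the stressed acclimated groups, and 6805, 10464 and 6578 in the later groups. Scaled, the later groups lay -1.24, -0.37 and -1.40 from the control, so the direction of all 3 turned. Among the 8 treated groups the later ones were still the highest in both tables. The reason for the difference in the control was not tested.

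R249 was listed at -0.06 with heat stress alone, 0.60 and -0.20 after 2 d and 1 mo acclimation, and -0.43 and -0.04 in these states with heat stress. Its later values of 1.34, 1.35 and 1.47 lay within 0.13 of each other. By intensity R249 was 2181 in the control and 12401, 8637 and 12563 in the later groups, but 11346 after 2 d acclimation too. The 2 d acclimated group thus overlapped with the later ones by listed intensity, and lay 0.07 below the lowest of them after scaling.

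R158 was listed at -0.23 with heat stress, 0.62 and 0.33 after 2 d and 1 mo acclimation, and -0.33 and -0.26 with heat stress on top. In the later groups it was 1.51, 1.59 and 1.08. Its intensities there were 6894, 8953 and 6725, against 1218 in the control. The 2 d acclimated group (7835) lay among them and the 1 mo group (6306) below them. After scaling both acclimated groups, 1.80 and 2.14 above the control, lay within the later range (1.83, 2.46 and 1.68). The control value of R158 is listed at -3.32 as well, 1 of 9 control values away from 0 among the 87 rows, and with it subtracted R158 would pass 1 in every group.

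R050 and A024 were, with R158, nearest to the limit. R050 was listed at -0.02 with heat stress, -0.01 and 0.63 after 2 d and 1 mo acclimation, 0.25 and 0.65 in these states with heat stress, and 1.50, 1.22 and 1.08 in the later groups. Its intensity was 2341 in the control and between 4324 and 11248 in all treated groups, with the highest listed after 2 d acclimation. After scaling the 2 d acclimated, stressed group was highest, at 1.59 above the control. The later groups, listed at 9359, 7479 and 8004, were 1.33, 1.26 and 0.99 above the control after scaling. The acclimated groups were at 1.38 (2 d) and 1.39 (1 mo), so by intensity the later groups were not apart from them.

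A024 was the most even row after its late step. It was listed at 0.43 with heat stress, 0.27 and 0.32 after 2 d and 1 mo acclimation, 0.50 and 0.75 with heat stress on top, and 1.06, 1.09 and 1.08 in the later groups. A range of 0.04 covered the later values. Its intensity was highest, at 9253, in heat-stressed rats without acclimation, against 3407 in the control and 5205, 6056 and 8563 in the later groups, and the scaled difference after deacclimation was -0.06.

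Both tables were then set side by side over the 24 later values of the 8 rows. By scaled intensity 20 of the 24 lay above the control, the exceptions being the 3 values of R208 and the deacclimated value of A024, and 14 were at 1 or more. By group 6, 7 and 7 of 8 rows lay above the control. In the 2 d and 1 mo acclimated groups 5 and 6 of 8 did so too, with 3 and 2 at 1 or more. The share of all rows above the control was not computed by intensity. The median over all rows lay at -0.36, -0.41 and -0.55 in the later groups and at -0.07 and -0.12 in the acclimated groups. After deacclimation 5 of 8 rows reached 1 by intensity, beside 22% of the 82 rows that had intensities for this comparison. After reacclimation 5 of 8 did, beside 22.2% of 81 rows, and after reacclimation with heat stress 4 of 8 did, beside 19.5% of 87 rows. The lowest later group lay above the control and both acclimated groups in 4 of 8 rows, A022, R516, R570 and R249, beside 9.46% of 74 rows. Both tables come from the same samples, so the second is a further reading of the choice and not a separate test of it.

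**Figure D2:**
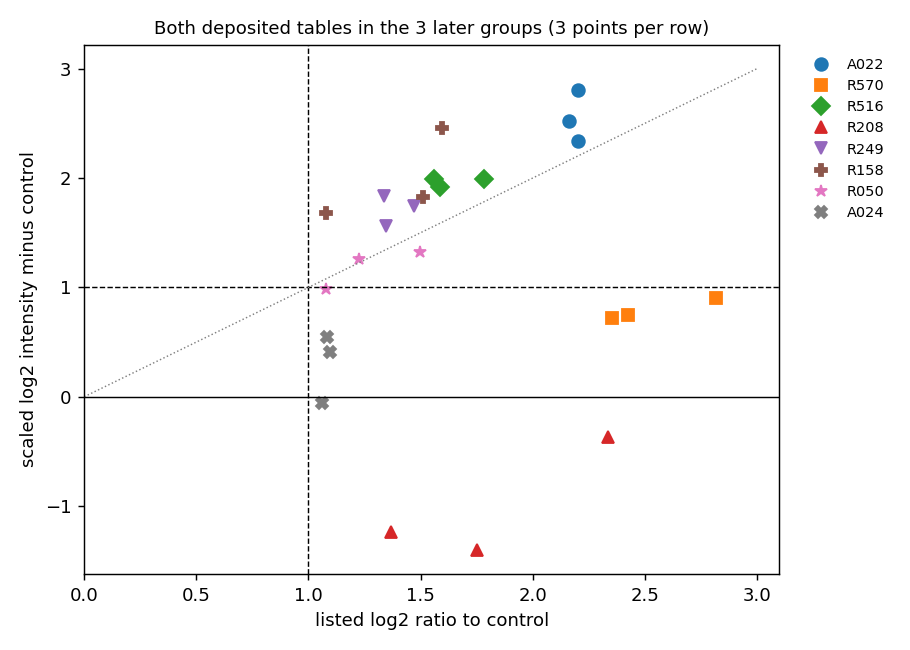
Listed log2 ratio to the control (horizontal axis) against the scaled log2 intensity minus that of the control (vertical axis) for the 8 rows in the 3 later groups, 3 points per row; dashed lines mark 1 and the dotted line equality. A022 and R516 lie high on both axes, R570 has listed ratios of 2.36 or more with intensity differences of 0.91 or less, and the 3 points of R208 lie below 0 by intensity.

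Over all groups, which include the later ones that chose the rows, the 8 rows were of middling to high intensity. Over the 9 groups their median intensities ran from 2492 (A022) to 7204 (R050), 6 of 8 were above the median of all rows (3420), and 0 of 8 were among the 22 rows (25% of all) with the lowest median intensity. One intensity of the 8 rows was below 0, that of R570 in the 2 d acclimated, stressed group. In the control, most of the rows were dim. Scaled log2 intensity there lay below the sample's median for R158 (-1.71), A022 (-1.45), R516 (-1.15), R249 (-0.87), R050 (-0.76), R570 (-0.59) and A024 (-0.22). R208 (1.35) lay above it.

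Comparisons that leave the control out were made next. Against 2 d acclimation, the same latest exposure without the earlier months, reacclimated hearts were higher by 1 or more in 5 of 8 rows, beside 18.4% of all rows. The differences were 2.75 for A022, 2.05 for R516, 2.03 for R570, 2.01 for R208 and 1.23 for R050, and 0.97, 0.83 and 0.74 for R158, A024 and R249. By scaled intensity they were 3.55 for A022, 1.85 for R516, 1.51 for R208 and 1.36 for R570, and between -0.12 and 0.66 for the other rows. Against 1 mo acclimation, 6 of 8 rows were higher by 1 or more after reacclimation, beside 19.5%, and 6 of 8 after deacclimation, beside 9.2%. R050 and A024 were the rows below 1 in both. By scaled intensity 4 of 8 rows were higher by 1 or more in each, A022, R516, R208 and R249. The shares of all rows for such counts were not computed by intensity. After deacclimation R158 turned from 1.18 to -0.31, R050 from 0.87 to -0.06 and A024 from 0.74 to -0.36. All of these columns chose the rows, so the counts are a description.

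The stressed groups give the corresponding comparison with a column on one side that the choice did not use. The reacclimated stressed column on the other side was part of the choice, which favours higher differences, so the counts are a description. Reacclimated stressed hearts were above 2 d acclimated stressed hearts by 1 or more in 5 of 8 rows, beside 26.4% of all rows. They were above 1 mo acclimated stressed hearts by as much in 4 of 8 rows, beside 18.4%. In both, R208 (2.30 and 2.24), R570 (2.03 and 2.03), R249 (1.90 and 1.51) and R158 (1.40 and 1.34) passed 1. A022 differed by 1.47 and 0.45, R516 by 0.25 and 0.51, A024 by 0.58 and 0.33 and R050 by 0.83 and 0.43. Against the 1 mo group, A022 and R516 were thus among the rows with the smaller differences. By scaled intensity the count against 1 mo acclimated stressed hearts was 1 of 8, R570 at 2.18, with R249 at 0.88, R208 at 0.24 and R158 at 0.09. There 6 of 8 rows were above 0, while A022 (-0.17) and R050 (-0.31) turned below it. Against 2 d acclimated stressed hearts it was 4 of the 7 rows with a value, R208 (2.83), R249 (2.70), R158 (2.66) and A022 (1.66). The other rows with a value turned below 0, R050 at -0.61, R516 at -0.23 and A024 at -0.008. For R208, R249 and R158 the difference rests on low intensities in 2 d acclimated stressed hearts, 329.2, 688.5 and 378. The shares of all rows for these intensity counts were not computed.

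Return to 34 °C for 2 d was compared with the deacclimated state before it. The difference was above 0 in 6 of 8 rows, beside 58.6% of all rows, with a median of 0.02 against 0.04 over all rows. It was 0.97 for R208 and -0.46 for R570, and between -0.27 (R050) and 0.22 (R516) in the other rows. With every group centred on its median, 2 of 8 rows were above 0. For A022 (0.00), R249 (0.01) and A024 (0.04) both groups had nearly the same value.

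Heat stress was last compared with each state's own unstressed group. Without acclimation, 4 of 8 rows were above 0, beside 44.8% of all rows, and all 8 differences were under 0.5 in size, beside 57.5% of all rows, a limit chosen after the values were seen. After 2 d acclimation 5 of 8 were above 0, beside 35.6%, after 1 mo 5 of 8, beside 44.8%, and after reacclimation 2 of 8, beside 35.6%. The low acclimated values were part of the choice, which favours a higher difference in those states.

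In the acclimated states the rows parted. A022 was higher on heat stress by 1.24 after 2 d and by 2.01 after 1 mo, and R516 by 1.60 and 1.58. These were the 2 of 8 rows at 1 or more in either state, beside 9.2% of all rows after 2 d and 8.05% after 1 mo. R249 was lower by 1 or more after 2 d acclimation (-1.03), as were 33.3% of all rows, and R158 (-0.95) and R208 (-0.87) came near. After 1 mo R158 and R208 were at -0.59 and -0.56, and R249 at 0.16.

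In reacclimated rats 0 of the 8 rows differed by 1 or more on heat stress, beside 14.9% of all rows. The choice required 1 or more in both of these columns, so the count is a description. A022 stood at -0.04 and R516 at -0.19, from listed unstressed levels of 2.20 and 1.78. Those levels were already above the listed ones reached by stress in the acclimated states. By scaled intensity this held for A022, 2.80 above the control against 0.86 (2 d) and 2.68 (1 mo). It did not hold for R516, at 1.99 against 2.15 in the 2 d acclimated, stressed group. R208 and R158 were lower, by -0.58 and -0.52, and R249 (0.12), R570 (0.07), A024 (-0.01) and R050 (-0.14) differed less.

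By scaled intensity the stress difference had the same sign as the listed one in 7 of 7 rows after 2 d acclimation, against 68.2% of all rows. It did so in 5 of 8 rows after 1 mo acclimation (80.5% of all rows), in 7 of 8 after reacclimation (72.8%) and in 2 of 8 without acclimation (57.9%). For A022 the intensity differences were 1.60 and 2.14 after 2 d and 1 mo acclimation and -0.28 after reacclimation. For R516 they were 2.01, 1.38 and -0.07. The values after 2 d acclimation depend on the scaling. Unscaled, A022 was listed at 1618 with and 1606 without heat stress, and R516 at 4863 and 3648. After 2 d acclimation R158, R249 and R208 were lower by intensity too, at -2.78, -2.45 and -2.35. These sizes rest on low stressed intensities of 378, 688.5 and 329.2, in the group where R570 was listed at -371.5. Without acclimation the intensity difference was -1.76 for R208 against a listed 0.31, 1.27 for R158 against -0.23, 0.79 for A022 against -0.45 and -0.76 for R570 against 0.39, all of opposite sign.

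**Figure D3:**
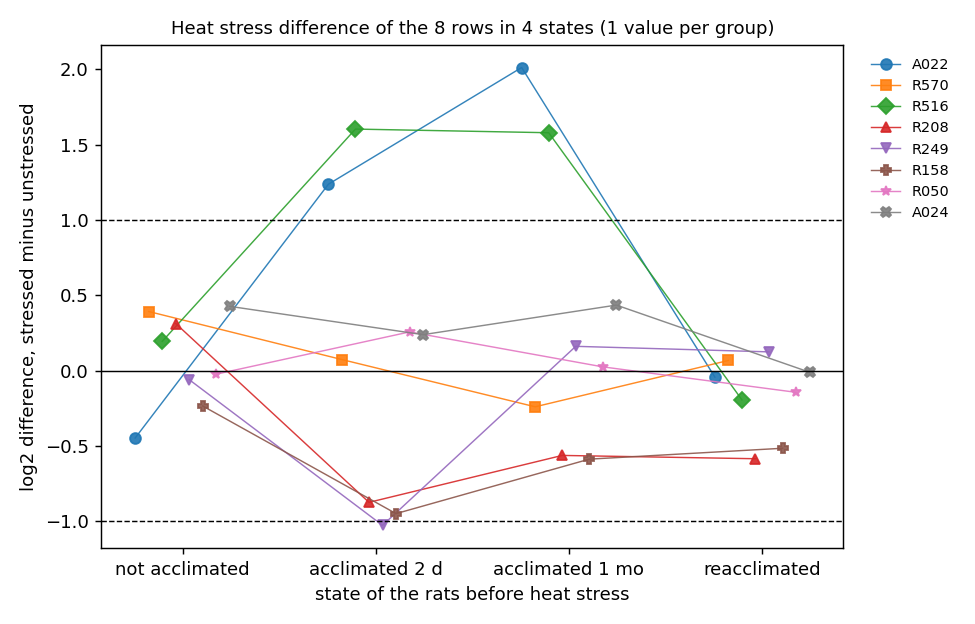
Log2 difference between the stressed and the unstressed group (vertical axis) for each of the 8 rows in 4 states of the rats (horizontal axis), 1 value per row and state, offset sideways for sight; lines join the values of a row and dashed lines mark 1 and -1. A022 and R516 lie above 1 after 2 d and 1 mo acclimation and between -0.45 and 0.19 in the other states, and R208, R249 and R158 lie lowest after 2 d acclimation.

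The other rows with the most similar profile were found by Pearson correlation with the mean of the 8 rows over the 8 treated groups. They were R177 (r = 0.877), A067 (r = 0.854) and R675 (r = 0.836), given with no p because all ratios share the control. R177 was listed at 0.70, 1.49 and 0.94 in the later groups and between -0.47 and 0.62 elsewhere. A067 was listed at 0.85, 1.33 and 1.01, and R675 at 0.81, 0.87 and 0.75. Each of the 3 stayed under 1 after deacclimation, and the scaled intensities of R177 and A067 lay below the control in all later groups, between -1.56 and -0.13.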

How the data were processed

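Per the labels, the deposited log2 table gives treatment over control as normalized ratios of geomeans. A second deposited table holds intensity values on a linear scale, some below 0. RNA carried a radioactive label for a Clontech array, per the labels' protocols. No label states the normalization, the background correction or how the 87 rows were picked. The control was taken as 0, although 9 control values are listed away from 0 (by over 1e-05). Differences are between log2 ratios. Intensities above 0 were put on the log2 scale, and the median of the 59 rows with no value at or below 0 was subtracted in each sample.

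No test was run, as each group has 1 value. Counts use a log2 limit of 1. The selection step was run on simulated data with added shifts far above the limit and small noise. That run checked only that the step worked as written, and it cannot bear on rows near the limit. The rows and comparisons were chosen with earlier results of these data known. Rows were named if they were among the 8, among the 3 nearest misses, or among the 3 most similar profiles. Gaps to the stressed groups and a limit of 0.5 were added later. Tools were matplotlib 3.10.9, pandas 2.3.3 and numpy 2.4.6 under Python 3.11.15.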

Additional observations from a re-analysis of the deposited data

Results flagged for a closer look

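For 3 of the 8 rows the heat stress difference was at least 1 in size in one state and had the opposite sign in another, as it did in 43.7% of all rows. For A022 it was 2.01 after 1 mo acclimation and -0.45 without acclimation, 2.46 apart. For R516 it was 1.60 after 2 d acclimation and -0.19 after reacclimation, 1.80 apart. For R249 it was 0.16 after 1 mo and -1.03 after 2 d acclimation, 1.19 apart. Each rests on 1 value per group, and the difference between states was not tested. By scaled intensity A022 was also above 0 without acclimation (0.79).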

How the results depend on the processing

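With 1 value per group, no replicate could be left out. No paired analysis was possible because each group has 1 sample. The 8 rows met the rule as listed. With each group centred on its median 4 of them did, by scaled intensity 2, and with a limit of 1.2 in place of 1, 5. Of all 87 rows, 4, 3 and 5 met the rule in these settings. With the control subtracted as listed 6 of the 8 did, as did 6 of all rows. Members at 1 or more in heat-stressed rats went from 0 to 2 with the control subtracted as listed and to 2 by intensity. In 2 d acclimated, stressed rats they went from 1 to 3 and 2, and in 1 mo acclimated, stressed rats from 2 to 4 by intensity and 1 at a limit of 1.2. Rows above 0 from deacclimation to reacclimation went from 6 to 2 after centring, and rows above 0 on stress after reacclimation from 2 to 4. Under these alternatives the shares of all rows were not computed for the counts in the stressed groups or for those above 0. Rows whose later groups lay above the 3 other stressed groups went from 8 to 6 after centring and 4 by intensity, which includes R570 without its 2 d acclimated, stressed value. Reacclimated stressed hearts were above 2 d acclimated stressed hearts by 1 or more in 5 rows as listed and 3 after centring, and above 1 mo acclimated stressed hearts in 4 rows as listed and 1 by intensity. These last alternatives were added after the data were seen. The direction of 4 later values turned by intensity, R208 at -1.24, -0.37 and -1.40 and A024 at -0.061 after deacclimation. The cause was not tested. Of the 27 listed values of the 8 rows at 1 or more, 0 turned after centring or with the control subtracted as listed. That outcome was fixed, so nothing is read from it. Centring lowered values by at most 0.41, and subtracting the control only raised A022 and R158 and left the other rows nearly unchanged. Of all 64 values, 16 moved by over 1.5-fold with the control subtracted, all of A022 and R158. By intensity 34 of 63 values moved by that much besides the 4 that turned, and 25 moved less. A turn was counted only for listed values of 1 or more in size. Smaller listed values also changed sign by intensity and are not among the 4. Examples are R570 with heat stress alone (0.39 to -0.76) and R208 after 2 d acclimation (0.33 to -1.88). Counts of differences from the unstressed acclimated groups stayed within 1.5 times under the alternatives run. Precision is limited by the number of arrays.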
